A study of Saccharomyces cerevisiae with 19 samples.

Results

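The 35 genes described here code for yeast chaperones and heat shock proteins: the Hsp70, Hsp90, Hsp104, Hsp60 and J-protein genes and their co-chaperones. They were chosen by gene symbol in the array's annotation, and all 35 were measured among 5449 genes. By the usual home of their products, 27 were counted as cytosolic and 8 as mitochondrial. The samples were budding yeast cultures that aged without transfer to fresh medium. The labelled sch9 mutant, described by the submitters as a long-lived deletion strain, had 9 arrays, one every 12 h from 12 to 108 h. The wild type had 10 arrays, one every 12 h from 12 to 120 h. Both strains grew at 30 °C with shaking in SDC, a synthetic complete medium, from diluted saturated cultures, and no other treatment was given. The 120 h array of the labelled mutant was set aside by the authors after a quality check and was not analysed here. Total RNA was hybridised to Affymetrix Yeast 2.0 arrays. The labels name no strain background. Each time point was 1 array, so p-values measure spread over time points and not over independent cultures. No replicate cultures are labelled, so strain and culture cannot be told apart. The precision of every value is limited by how few arrays there were.

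Chaperones bind unfolded stretches of other proteins and let them fold, cross membranes or come apart from aggregates. Hsp70 proteins do this with ATP. J-proteins stimulate their ATPase and nucleotide exchange factors reset it. Hsp90 receives part of its clients from Hsp70 through bridging co-chaperones, and Hsp104 pulls proteins out of aggregates together with Hsp70. Mitochondria hold a separate set, in which Hsp70 draws proteins in and the Hsp60 and Hsp10 chaperonin folds them. In yeast many of these genes are driven by the heat shock factor Hsf1, and part of them by Msn2 and Msn4, transcription factors held back by nutrient signalling through protein kinase A. Sch9 is a protein kinase that works in the same nutrient signalling network. In yeast that has used up its sugar, chaperone genes are classic stationary phase genes.

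All values are log2 signals, quantile-normalized over the 5449 genes, and differences are log2 differences. At 8 of the 9 times that both strains share, SCH9 (YHR205W) had less signal in the labelled mutant, with a mean difference of -0.52 ± 0.39 (SD, n = 9, exact permutation p = 0.00781), so its probe set still gave signal there. URA3, often used as a deletion marker, was higher there at every shared time, by 1.78 ± 0.36 (SD, n = 9, exact permutation p = 0.00391). Of 11 genes of the a and alpha mating types, 3 were higher and 3 lower in the labelled mutant by the strain test used for the chaperone genes, against 32.4% higher and 26.8% lower of all genes. The 3 higher were BAR1 (0.43), AGA2 (0.39) and ASG7 (0.18), all a genes. The 3 lower were alpha genes: MF(ALPHA)2 at -1.91, SAG1 at -1.36 and MF(ALPHA)1 at -1.32. The a genes STE2 (0.17), STE6 (-0.14), MFA1 (-0.22) and MFA2 (-0.14) and the alpha gene STE3 (-0.06) did not pass. The 3 higher a genes were dim, with mean signals of at most 8.17 in the labelled mutant and 7.78 in the wild type. Those of the 3 lower alpha genes were at least 8.89 in the labelled mutant and 10.80 in the wild type. The mean log2 excess of 3′ over 5′ signal in 10 control probe set pairs, which grows as RNA is degraded, ran between 0.73 and 1.06 in the labelled mutant and between 0.80 and 1.44 in the wild type. The 1.06 was the 24 h array of the labelled mutant, whose other arrays reached at most 0.95. The 3′ signal of 18S ribosomal RNA ran between 6.69 and 7.68 in the labelled mutant and between 8.03 and 14.64 in the wild type, in log2 as deposited. Bright probe sets read most chaperone genes: 21 of 35 had a median rank at or above percentile 90 of all genes. The strain difference of bright genes depends on the scaling. Over the 545 brightest genes, its median stood at -0.03 with quantile normalization, -0.34 in the values as deposited, -0.60 with median centring and 0.00 with cyclic loess.

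**Figure D1:**
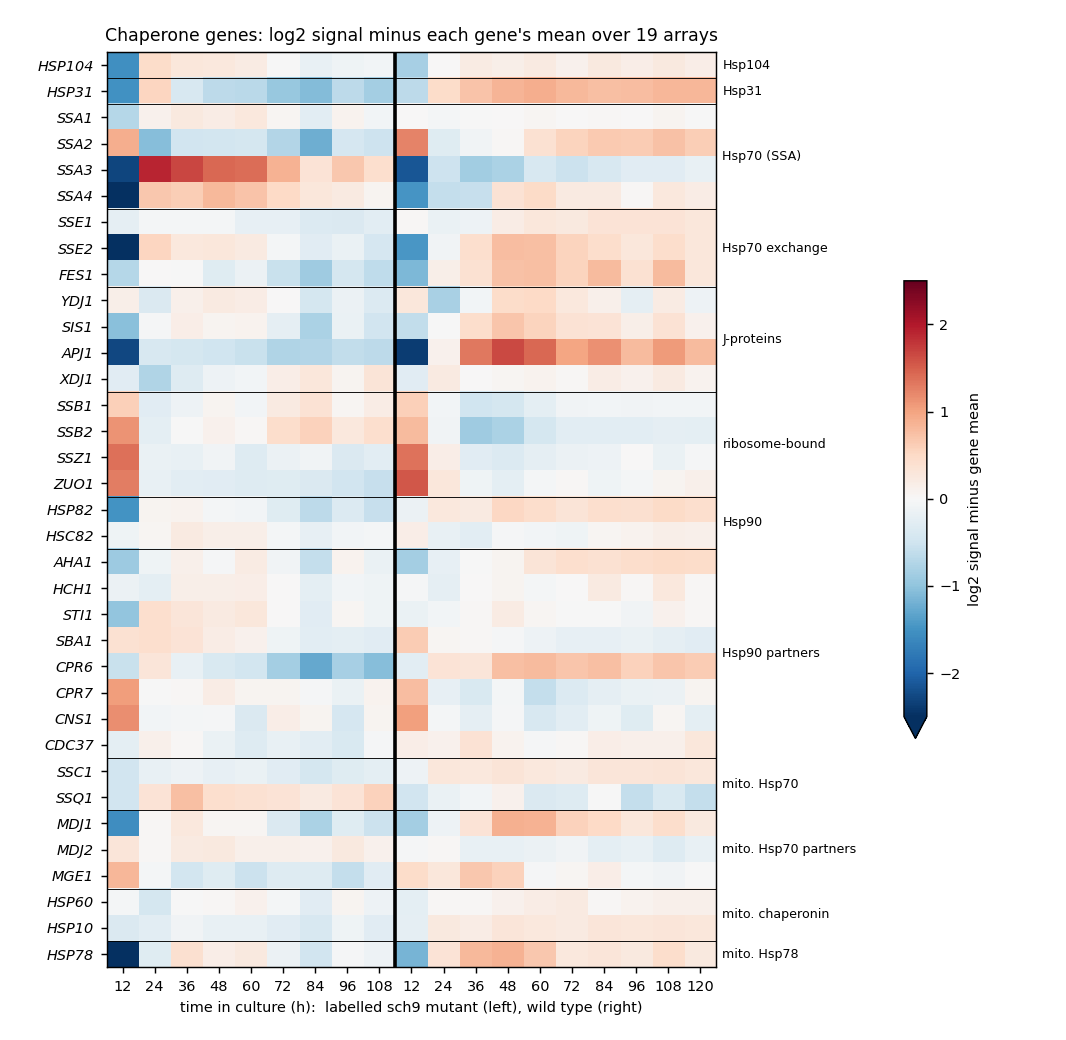
Each row is 1 of 35 chaperone genes, grouped by role, and each column is 1 array, in time order, with the labelled sch9 mutant (9 arrays) left of the wild type (10 arrays). Colour is the log2 signal minus the gene's mean over 19 arrays, with values beyond the colour scale drawn in its end colour. The 12 h array stood apart by Dixon's criterion in 15 of 35 rows of the labelled mutant and 21 of 35 of the wild type. The 12 h colours of both strains are low for HSP104, SSA3, SSA4, SSE2, APJ1 and HSP78 and high for SSA2, SSB1, SSB2, SSZ1, ZUO1, CPR7 and CNS1.

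After 12 h the chaperone genes moved both ways. Higher at 24 to 48 h than at 12 h were HSP104, HSP31, 2 of 4 SSA genes, 2 of 3 exchange factors, 2 of 4 cytosolic J-proteins, 1 of 2 Hsp90 genes, 3 of 8 Hsp90 co-chaperones and 4 of 8 mitochondrial members. Lower were the 4 ribosome-associated genes, 1 SSA gene and 2 Hsp90 co-chaperones. In a limma fit of 8 arrays (24, 36 and 48 h against 12 h, a single term common to both strains), 16 of 35 members were higher, 7 were lower and 12 did not pass. The threshold was an adjusted p of 0.05, by Benjamini and Hochberg's method over 5449 genes. Of all genes 52.8% passed this test, 24.1% higher and 28.7% lower, against 45.7% of the members higher and 20% lower. The median difference was 0.32 over the members and -0.04 over all genes. Each strain had 1 array at 12 h, so the time and that array cannot be told apart, and the step of each strain alone was not tested. In RNA of a whole culture, fewer cells of a kind and less RNA per cell cannot be told apart.

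HSP104 (YLL026W), the disaggregase, was higher by 1.40 (SE 0.20, adjusted p = 0.000591). Its step was 1.86 in the labelled mutant and 0.94 in the wild type. HSP31 (YDR533C), a stress protein of the DJ-1 family, was higher by 1.34 with nearly the same step in each strain. Among the Hsp70 genes of the SSA family, the stress-inducible members SSA3 (YBL075C) and SSA4 (YER103W) were higher by 2.69 (SE 0.46, adjusted p = 0.00148) and 2.46 (SE 0.50, adjusted p = 0.00328). SSA2 (YLL024C), a constitutive member made during growth, was lower, at -1.46 (SE 0.19, adjusted p = 0.000374). SSA1 (YAL005C), its near-identical partner, stood at 0.44 and did not pass. Among the exchange factors, SSE2 (YBR169C) was higher by 2.48 and FES1 (YBR101C) by 1.08, while SSE1 (YPL106C) stood at 0.05 and did not pass.

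Of the 4 cytosolic J-proteins, APJ1 (YNL077W) was higher by 2.61 (SE 0.43, adjusted p = 0.00124) and SIS1 (YNL007C), which is essential and works with Hsp104 and Hsp70, by 1.05. YDJ1 (YNL064C), the most general J-protein of the cytosol, stood at -0.29 and XDJ1 (YLR090W) at 0.13, and neither passed. The 4 ribosome-associated genes were all lower. These are the Hsp70 genes SSB1 (YDL229W) and SSB2 (YNL209W), at -0.82 and -1.28, and SSZ1 (YHR064C) and ZUO1 (YGR285C), the Hsp70 and the J-protein of the ribosome-associated complex, at -1.52 and -1.55. These 4 had steps between -1.54 and -0.71 in the labelled mutant and between -1.57 and -0.93 in the wild type. The SSB1 values here come from a probe set with a suffix for shared sequence. SSB1's own, dimmer probe set, an alternative chosen after its values were seen, gave -1.64 for the term common to both strains.

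The Hsp90 genes did not move alike. HSP82 (YPL240C), the inducible one, was higher by 1.02 (SE 0.22, adjusted p = 0.00494), and HSC82 (YMR186W), the constitutive one, stood at -0.04 and did not pass. Among the 8 co-chaperones of Hsp90, 3 were higher: AHA1 (YDR214W), which stimulates its ATPase, by 0.86, STI1 (YOR027W), which bridges Hsp70 and Hsp90, by 0.77, and the cyclophilin CPR6 (YLR216C) by 0.60. The cyclophilin CPR7 (YJR032W), at -0.98, and CNS1 (YBR155W), an essential co-chaperone, at -1.16, were lower. SBA1 (YKL117W), the p23 protein, HCH1 (YNL281W), a small relative of AHA1, and CDC37 (YDR168W), which delivers protein kinases, did not pass. The call of CPR6 was lost in 7 alternatives, that of SSC1 in 6 and that of STI1 in 4. Without 36 h, the values were 0.67 for CPR6 (adjusted p = 0.0766), 0.36 for SSC1 (adjusted p = 0.13) and 0.78 for STI1 (adjusted p = 0.0581). CPR6 was also lost without 24 h (0.53, adjusted p = 0.0656), and SSC1 (0.37, adjusted p = 0.0909) and STI1 (0.76, adjusted p = 0.0625) without 48 h.

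In mitochondria 4 of 8 members were higher and none was lower. HSP78 (YDR258C), the matrix relative of Hsp104, was higher by 2.34 (SE 0.27, adjusted p = 0.00024), and MDJ1 (YFL016C), the J-protein of the matrix, by 1.45. SSQ1 (YLR369W), an Hsp70 devoted to iron-sulphur cluster assembly, was higher by 0.71, and SSC1 (YJR045C), the abundant Hsp70 of import and folding, by 0.37. HSP60 (YLR259C), at 0.11, HSP10 (YOR020C), at 0.32, the J-protein gene MDJ2 (YNL328C), at -0.12, and the exchange factor gene MGE1 (YOR232W), at -0.52, did not pass. The step of MGE1 was -1.10 in the labelled mutant and 0.06 in the wild type, values that were not tested. With 24 to 108 h against 12 h, an alternative added after the data were seen, limma called MGE1 lower (-0.72, adjusted p = 0.00405). In that fit HSP10 was called higher (0.31, adjusted p = 0.00668). In the cytosol 12 of 27 members were higher and 7 lower. The median difference was 0.35 over the mitochondrial and 0.13 over the cytosolic members. The cytosolic difference lay between the extremes -1.55 and 2.69.

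For several inducible genes the step was larger in the labelled mutant, a difference that rests on 1 array per strain at 12 h and was not tested. SSA3 had 3.96 in the labelled mutant and 1.42 in the wild type, from nearly equal 12 h signals and 24 to 48 h means of 13.14 in the labelled mutant and 10.74 in the wild type. SSA4 had 3.73 in the labelled mutant and 1.20 in the wild type, and SSE2 had 3.14 in the labelled mutant and 1.82 in the wild type. HSP82, STI1 and SSA1 had 1.54, 1.31 and 0.90 in the labelled mutant, against 0.49, 0.24 and -0.02 in the wild type. At 12 h SSA4, SSE2, HSP82, STI1 and SSA1 were all lower in the labelled mutant, by strain differences of -1.56, -1.33, -1.35, -0.82 and -0.72. Its 24 to 48 h means were higher for SSA4 (13.14 against 12.17), STI1 (12.85 against 12.59) and SSA1 (13.39 against 13.19). The mean of SSE2 was nearly equal (12.66 against 12.67) and that of HSP82 was lower (12.74 against 13.03). APJ1 and FES1 went the other way, with 1.82 and 0.62 in the labelled mutant, against 3.40 and 1.54 in the wild type.

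**Figure D2:**
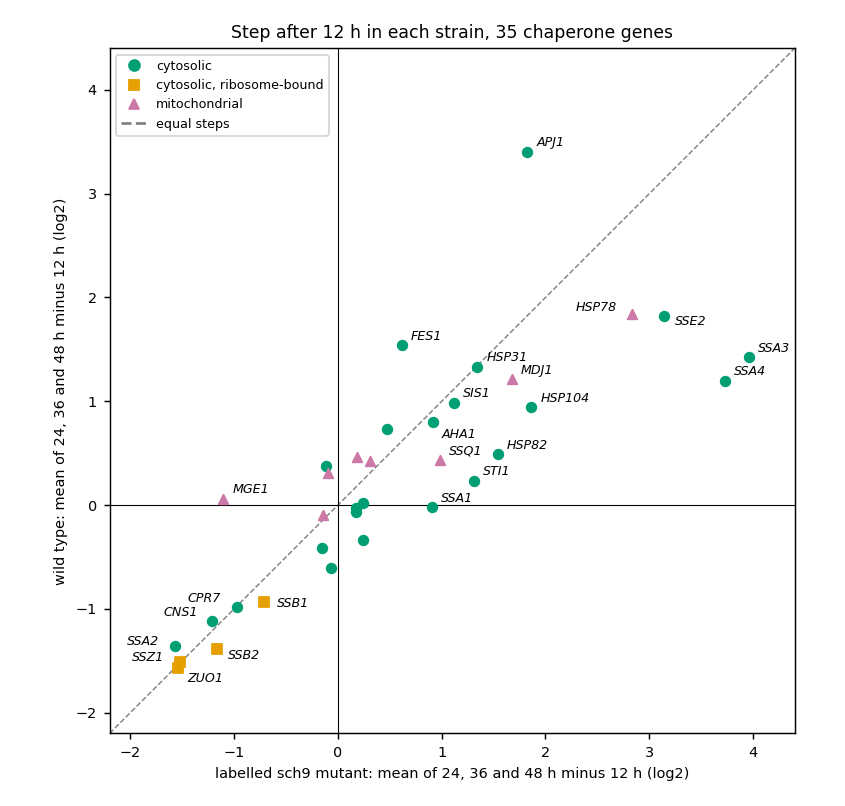
The step of each of 35 chaperone genes, as the mean log2 signal at 24, 36 and 48 h minus that at 12 h, with the labelled sch9 mutant on the horizontal axis and the wild type on the vertical axis. Circles are cytosolic, squares ribosome-bound and triangles mitochondrial members, and points below the dashed line had a larger step in the labelled mutant, such as SSA3 (3.96 against 1.42) and SSA4 (3.73 against 1.20).

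The strains differed in more chaperone genes downward than upward. Over the 9 shared times, with the time points as blocks, 16 of 35 members were lower in the labelled mutant, 6 were higher and 13 did not pass the limma test. Of all genes 59.2% passed, 26.8% lower and 32.4% higher. The share of members called, 62.9%, was thus near that of all genes, with 45.7% lower and 17.1% higher. The median difference was -0.15 over the members and 0.03 over all genes. The split depended on the scaling: it was 20 lower and 5 higher in the deposited values, 27 lower and 3 higher with median centring, and 16 lower and 6 higher with cyclic loess. Leaving out 1 time point in turn gave 16 to 18 lower and 5 to 7 higher members. When the 3′ to 5′ score was added to the model, 13 members were lower and 5 higher. No share of all genes stands beside the counts with 1 time left out or with the score. They are not read as results about the members.

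Of the members, 9 had 1 sign at all 9 times, 8 of them lower, where 28.4% of all genes had 1 sign throughout. From 24 h on, the ranges of the strains did not overlap for 8 members, against 23.5% of all genes. Of these, SSA3 and SSQ1 were higher in the labelled mutant, and SSA2, FES1, APJ1, HSP82, SSC1 and HSP10 were lower.

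**Figure D3:**
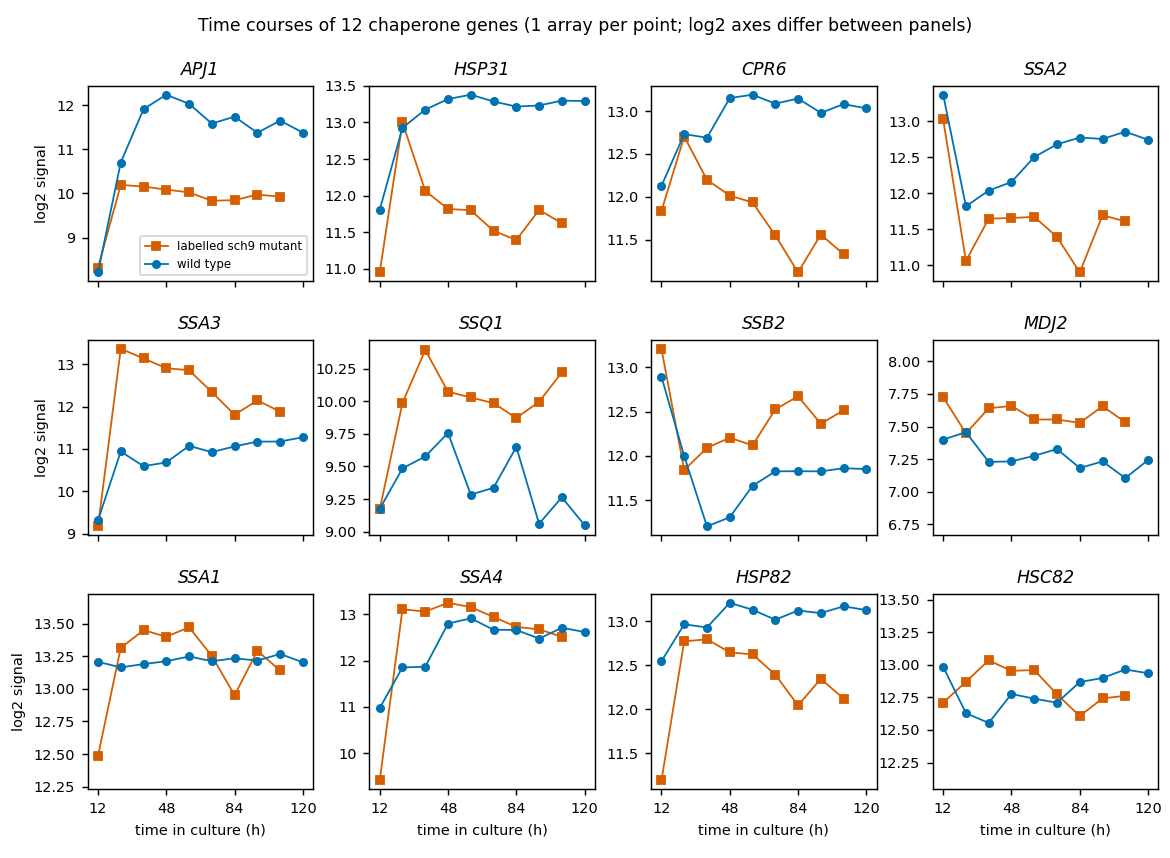
Log2 signal against hours in culture for 12 chaperone genes, with squares for the labelled sch9 mutant (9 arrays) and circles for the wild type (10 arrays), 1 array per point and a log2 axis of its own in each panel. APJ1, HSP31, CPR6 and SSA2 lay lower in the labelled mutant at most times after 24 h, SSA3, SSQ1, SSB2 and MDJ2 higher, and the courses of SSA1 and HSC82 crossed.

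APJ1 had the largest difference downward. In time order its signals were 8.32, 10.19, 10.15, 10.09, 10.02, 9.83, 9.85, 9.97 and 9.93 in the labelled mutant, against 8.21, 10.70, 11.91, 12.24, 12.03, 11.58, 11.74, 11.37, 11.65 and 11.38 in the wild type. The strains stood close at 12 h, and from 24 h on no array of the labelled mutant reached the lowest of the wild type. The mean difference was -1.45 (SE 0.22, lower at 8 of 9 times, adjusted p = 0.000211), or 2.74-fold lower in the labelled mutant.

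HSP31 reached the same level in both strains at 24 h and then parted. HSP31 had 10.95, 13.00, 12.07, 11.82, 11.80, 11.52, 11.39, 11.81 and 11.62 in the labelled mutant, against 11.81, 12.93, 13.17, 13.32, 13.38, 13.29, 13.22, 13.23, 13.30 and 13.29 in the wild type. From 36 h on every array of the labelled mutant was below every one of the wild type from 24 h on. On average the labelled mutant differed by -1.30 (SE 0.17, lower at 8 of 9 times, adjusted p = 0.000107).

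CPR6 also matched at 24 h. In the same order its signals were 11.83, 12.70, 12.20, 12.01, 11.94, 11.55, 11.12, 11.56 and 11.33 in the labelled mutant, against 12.13, 12.73, 12.69, 13.15, 13.19, 13.09, 13.15, 12.98, 13.08 and 13.03 in the wild type. The gap widened up to 84 h, where it was -2.02. Over the course the difference averaged -1.10 (SE 0.20, lower at 9 of 9 times, adjusted p = 0.000642).

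SSA2 was high at 12 h and low at 24 h in each strain. SSA2 had 13.02, 11.06, 11.65, 11.66, 11.67, 11.39, 10.91, 11.69 and 11.61 in the labelled mutant, against 13.36, 11.82, 12.04, 12.16, 12.50, 12.68, 12.77, 12.75, 12.85 and 12.74 in the wild type. Later wild-type arrays were higher again, while those of the labelled mutant lay between 10.91 and 11.69. The mean difference was -0.92 (SE 0.15, lower at 9 of 9 times, adjusted p = 0.000318).

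SSA3 was the member with the largest difference upward. SSA3 had 9.17, 13.36, 13.14, 12.91, 12.86, 12.34, 11.81, 12.15 and 11.88 in the labelled mutant, against 9.32, 10.94, 10.59, 10.68, 11.07, 10.92, 11.06, 11.17, 11.18 and 11.28 in the wild type. At 12 h the strains differed by -0.14, at 36 h by 2.54 and at 108 h by 0.71. The mean difference was 1.41 (SE 0.26, higher at 8 of 9 times, adjusted p = 0.000772), or 2.65-fold.

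SSQ1 had equal signals at 12 h. SSQ1 had 9.17, 9.99, 10.39, 10.07, 10.03, 9.99, 9.87, 9.996 and 10.22 in the labelled mutant, against 9.17, 9.49, 9.58, 9.76, 9.28, 9.34, 9.65, 9.06, 9.26 and 9.05 in the wild type. From 24 h on the lowest array of the labelled mutant, at 84 h, lay above the highest of the wild type, at 48 h. On average SSQ1 differed by 0.57 (SE 0.10, higher at 8 of 9 times, adjusted p = 0.000734).

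SSB2 fell back after 12 h in both strains and was lowest in the wild type at 36 h. SSB2 had 13.21, 11.84, 12.09, 12.20, 12.12, 12.52, 12.67, 12.36 and 12.51 in the labelled mutant, against 12.89, 12.00, 11.20, 11.31, 11.66, 11.82, 11.83, 11.82, 11.86 and 11.85 in the wild type. At 24 h the wild type was higher, and at the other 8 shared times the labelled mutant. The difference averaged 0.57 (SE 0.11, higher at 8 of 9 times, adjusted p = 0.000772), a call that was lost with median centring.

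MDJ2 was the dimmest member, with a median rank at percentile 3.47 of all genes. MDJ2 had 7.73, 7.45, 7.64, 7.66, 7.55, 7.55, 7.53, 7.66 and 7.53 in the labelled mutant, against 7.40, 7.46, 7.23, 7.23, 7.28, 7.33, 7.18, 7.23, 7.10 and 7.24 in the wild type. The difference was small and even over time, 0.32 (SE 0.06, higher at 8 of 9 times, adjusted p = 0.000952). Its sign turned with median centring, to -0.23, and its call was lost in the deposited values.

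**Figure D4:**
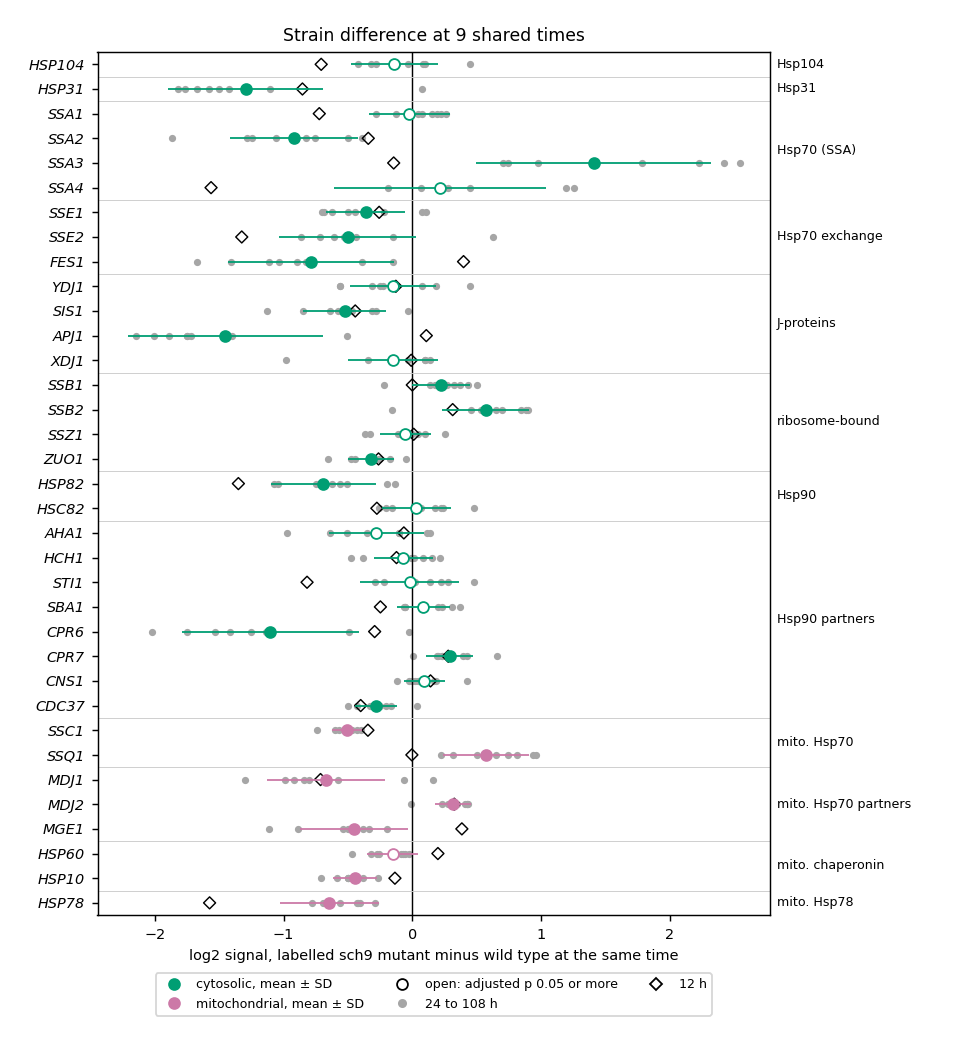
Log2 signal of the labelled sch9 mutant minus that of the wild type at the same time, for 35 chaperone genes grouped by role. Large points are means with SD over 9 shared times, open where the adjusted p was 0.05 or more, grey points are the single times from 24 to 108 h and diamonds are 12 h. APJ1 (-1.45) and HSP31 (-1.30) lie furthest left and SSA3 (1.41) furthest right, and the diamonds of HSP78, SSA4, HSP82 and SSE2 lie left of all their other points.

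By role, the exchange factors of cytosolic Hsp70 were all lower in the labelled mutant: FES1 at -0.79 (SE 0.19, adjusted p = 0.00357), SSE2 at -0.50 (SE 0.16, adjusted p = 0.0162) and SSE1 at -0.36 (SE 0.10, adjusted p = 0.00779). All 3 calls were lost without the times from 84 h on, at -0.53, -0.42 and -0.21, and when the 3′ to 5′ score was added to the model, at -0.38, -0.21 and -0.12. SIS1 was lower, at -0.53 (SE 0.10, adjusted p = 0.00105), while YDJ1 (-0.15) and XDJ1 (-0.15) did not pass. Of the SSA genes, SSA1 stood at -0.02 and SSA4 at 0.21, and neither passed. For SSA4 1 time decided: it was -1.56 at 12 h and averaged 0.44 ± 0.52 (SD, n = 8) from 24 h on, and without 12 h it passed at 0.44 (adjusted p = 0.0329). HSP104 was at -0.71 at 12 h and at 0.45 at 24 h, and its mean, -0.14, did not pass (adjusted p = 0.276).

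At the ribosome, SSB2 (0.57) and SSB1 (0.22, SE 0.08, adjusted p = 0.0299) were higher, ZUO1 was lower (-0.32, SE 0.07, 9 of 9 times, adjusted p = 0.00183), and SSZ1 (-0.06) did not pass. The SSB1 value comes from a probe set whose suffix marks sequence shared between genes. SSB1's own, dimmer probe set, an alternative chosen after its values were seen, gave -0.11 (adjusted p = 0.511). The sign of SSB1 also turned without rescaling (-0.15) and with median centring (-0.41). Leaving out 36, 48, 60, 72, 84 or 108 h also ended its call, with values of 0.20, 0.19, 0.23, 0.21, 0.19 and 0.22.

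Of the Hsp90 genes, HSP82 was lower (-0.69, SE 0.12, 9 of 9 times, adjusted p = 0.000608) and HSC82 stood at 0.03 (adjusted p = 0.771), at -0.33 as deposited and -0.58 after median centring. Of the 8 co-chaperones, CPR6 and CDC37 were lower, the second at -0.28 (SE 0.06, adjusted p = 0.00284), and CPR7 was higher by 0.29 (SE 0.07, 9 of 9 times, adjusted p = 0.00361). So the cyclophilins CPR6 and CPR7, relatives that both bind Hsp90, were called in opposite directions. STI1 (-0.02), HCH1 (-0.07), SBA1 (0.08) and CNS1 (0.09) did not pass. AHA1 stood at -0.28 (adjusted p = 0.0534), and passed without 12 h (-0.30, adjusted p = 0.0482), without 24 h (-0.33, adjusted p = 0.0304) and without 36 h (-0.33, adjusted p = 0.0332).

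Most mitochondrial members were lower in the labelled mutant. SSC1 was lower at 9 of 9 times with a difference of -0.51 (SE 0.06, adjusted p = 3.4e-05), with signals of 12.20 to 12.55 in the labelled mutant, against 12.55 to 13.00 in the wild type. MDJ1 was lower, at -0.67 (SE 0.14, adjusted p = 0.00138), HSP78 at -0.64 (SE 0.12, adjusted p = 0.000689), MGE1 at -0.45 (SE 0.13, adjusted p = 0.00957) and HSP10 at -0.45 (SE 0.07, adjusted p = 0.000197). HSP60, which forms the chaperonin with HSP10, stood at -0.15 (adjusted p = 0.0895) and passed without 12 h at -0.20 (adjusted p = 0.0204). SSQ1 and MDJ2 were higher. MGE1 missed the threshold at nearly the same size without the times from 84 h on (-0.47, SE 0.18, adjusted p = 0.0622) and with the score covariate (-0.45, SE 0.18, adjusted p = 0.0544), and stood at -0.23 (adjusted p = 0.292) as deposited.

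Some members that did not pass were called under other settings. HSP104, SSA1, YDJ1, AHA1 and HSP60 were lower without rescaling, at -0.52, -0.49, -0.40, -0.57 and -0.63 (adjusted p between 0.00432 and 0.0481), and after median centring, at -0.77, -0.75, -0.65, -0.82 and -0.88 (adjusted p between 0.000693 and 0.00864). HSC82 also passed as lower under both of these scalings. With array weights HSP104 (-0.18, adjusted p = 0.0181), YDJ1 (-0.30), AHA1 (-0.48) and HSP60 (-0.21) were lower. Median centring also called STI1 (-0.57), HCH1 (-0.50) and SSZ1 (-0.19) lower. CNS1 was higher without rescaling (0.37) and with array weights (0.17), and XDJ1 was lower with the score covariate (-0.43, adjusted p = 0.00213).

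Set side by side, 5 of 8 mitochondrial members were lower, 2 higher and 1 did not pass, against 11 of 27 cytosolic members lower, 4 higher and 12 that did not pass. The median difference was -0.45 over the mitochondrial and -0.15 over the cytosolic members. By time, the mitochondrial median was -0.07 at 12 h and lay between -0.60 and -0.17 from 24 to 108 h. The cytosolic median was -0.26 at 12 h, 0.03 at 24 h and 0.10 at 36 h, and then lay between -0.42 and -0.05. The median over all genes stayed between 0.00 and 0.06. The difference between the locations was not tested, because the members were chosen with results known. The mitochondrial median remained below the cytosolic one under each scaling, at -0.64 and -0.34 as deposited, -0.89 and -0.59 after median centring and -0.43 and -0.13 after cyclic loess. Median centring shifts the mean strain difference of every gene alike. The gap between the locations is then the same as in the deposited values by construction.

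The level within each strain was followed against its own 12 h array. The mitochondrial median in the labelled mutant reached 0.31 at 36 h, was 0.00 at 84 h and stood at 0.15 in the last array. That of the wild type reached 0.49 at 48 h and stood at 0.41 in the last array. The cytosolic median in the labelled mutant was 0.38 at 24 h, its highest, -0.10 at 84 h, its lowest, and 0.10 in the last array. That of the wild type was -0.04 at 24 h, its lowest after 12 h, and 0.21 in the last array.

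Ratios within an array compare related genes. A shift of a whole array cancels in them, as with the deposited values and median centring, and quantile normalization does not. For 6 pairs the log2 ratio was compared between strains, time by time, by an exact permutation of the signs of 9 differences, two-sided, whose smallest p is 0.00391, adjusted over the 6 pairs. Probe sets of different genes are not on a common scale, so only the strain difference of a ratio is read. Near-identical genes such as SSA1 and SSA2 may also share hybridisation, which was not tested. In 5 of 6 pairs the ratio differed between the strains. Ratios of other gene pairs were not tested, so no share over all genes stands beside this count. Among single genes, 28.4% of all had 1 sign of the strain difference at all 9 times.

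SSA1 had 12.48, 13.31, 13.45, 13.40, 13.47, 13.25, 12.95, 13.29 and 13.14 in the labelled mutant, against 13.21, 13.16, 13.19, 13.21, 13.25, 13.21, 13.23, 13.22, 13.27 and 13.20 in the wild type. SSA1 was thus nearly flat in the wild type while SSA2 was not. The ratio of SSA1 over SSA2 was higher in the labelled mutant at 8 of 9 times, by 0.90 ± 0.56 (SD, n = 9, adjusted exact p = 0.00937). It was 0.71 (adjusted exact p = 0.075) without the times from 84 h on.

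SSA4 had 9.41, 13.11, 13.06, 13.25, 13.16, 12.94, 12.73, 12.67 and 12.52 in the labelled mutant, against 10.97, 11.85, 11.87, 12.80, 12.91, 12.67, 12.66, 12.48, 12.71 and 12.62 in the wild type. SSA4 was high from 24 h in the labelled mutant and from 48 h in the wild type, and the strains then ran close together. The ratio of SSA4 over SSA3 differed by -1.19 ± 0.37 (SD, n = 9, lower at 9 of 9 times, adjusted exact p = 0.00586).

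HSP82 had 11.19, 12.77, 12.79, 12.65, 12.62, 12.39, 12.04, 12.35 and 12.12 in the labelled mutant, against 12.54, 12.96, 12.93, 13.21, 13.13, 13.02, 13.12, 13.09, 13.17 and 13.12 in the wild type. HSP82 was lower in the labelled mutant at every shared time, and from 24 h on the ranges did not overlap. The constitutive partner HSC82 had 12.71, 12.87, 13.03, 12.95, 12.96, 12.77, 12.61, 12.74 and 12.76 in the labelled mutant, against 12.98, 12.63, 12.55, 12.78, 12.74, 12.71, 12.87, 12.90, 12.96 and 12.94 in the wild type. The HSC82 ranges overlapped. The ratio of HSP82 over HSC82 differed by -0.72 ± 0.18 (SD, n = 9, lower at 9 of 9 times, adjusted exact p = 0.00586), between -1.08 and -0.44.

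SSB1, by its shared probe set, had 13.45, 12.57, 12.73, 12.92, 12.78, 13.08, 13.22, 12.90 and 13.04 in the labelled mutant, against 13.45, 12.79, 12.36, 12.42, 12.60, 12.75, 12.78, 12.76, 12.77 and 12.77 in the wild type. By that probe set SSB1 followed SSB2 with smaller swings. SSB1's own probe set, an alternative chosen after its values were seen, had a wider range than SSB2. It ran between 13.69 and 11.50 in the labelled mutant, against 13.21 and 11.84 for SSB2. In the wild type it ran between 13.76 and 11.96, against 12.89 and 11.20 for SSB2. The ratio given here rests on the shared probe set. The ratio of SSB1 over SSB2 differed by -0.35 ± 0.12 (SD, n = 9, lower at 9 of 9 times, adjusted exact p = 0.00586).

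HSP78 had 9.02, 11.46, 12.17, 11.94, 12.01, 11.62, 11.30, 11.73 and 11.64 in the labelled mutant, against 10.60, 12.10, 12.58, 12.63, 12.44, 12.04, 12.07, 12.02, 12.20 and 12.01 in the wild type. Its cytosolic relative HSP104 had a smaller strain difference, with 11.26, 13.25, 13.08, 13.05, 12.99, 12.79, 12.61, 12.68 and 12.73 in the labelled mutant, against 11.97, 12.81, 12.99, 12.95, 13.03, 12.91, 13.03, 12.96, 13.05 and 12.96 in the wild type. The ratio of HSP78 over HSP104, matrix over cytosolic disaggregase, differed by -0.51 ± 0.34 (SD, n = 9, lower at 9 of 9 times, adjusted exact p = 0.00586). It was -0.28 with the deposited scaling or median centring (adjusted exact p = 0.188).

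SSE2 had 9.52, 12.83, 12.57, 12.57, 12.51, 12.25, 12.01, 12.13 and 11.87 in the labelled mutant, against 10.84, 12.21, 12.71, 13.08, 13.04, 12.86, 12.73, 12.57, 12.74 and 12.57 in the wild type. SSE2 was lowest at 12 h in each strain. Its constitutive relative SSE1 had 12.54, 12.71, 12.71, 12.72, 12.55, 12.57, 12.42, 12.40 and 12.49 in the labelled mutant, against 12.79, 12.60, 12.63, 12.94, 13.05, 13.01, 13.11, 13.11, 13.11 and 13.04 in the wild type. The ratio of SSE2 over SSE1 differed by -0.14 ± 0.43 (SD, n = 9, lower at 7 of 9 times, adjusted exact p = 0.414) and did not pass.

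Straight lines over the whole course called few members. In the labelled mutant, XDJ1 rose by 0.22 per day (SE 0.04, adjusted p = 0.00485), and SBA1 (-0.20, SE 0.04, adjusted p = 0.00266) and CPR6 (-0.27, SE 0.07, adjusted p = 0.0271) fell, 1 rising and 2 falling where 10% of all genes passed, 5.38% rising and 4.64% falling. In the wild type, AHA1 rose by 0.24 (SE 0.06, adjusted p = 0.0245) and SSE1 by 0.11 (SE 0.03, adjusted p = 0.0279), and SBA1 fell, at -0.14 (SE 0.03, adjusted p = 0.0107), 2 rising and 1 falling where 11.3% of all genes passed, 4.81% rising and 6.46% falling. The slopes differed between strains for CPR6, by -0.41 per day (SE 0.10, adjusted p = 0.026), where 2.86% of all genes passed, 1.12% with the higher and 1.74% with the lower slope in the labelled mutant. No mitochondrial member passed any of these slope tests in limma, with 1 at an unadjusted p under 0.05 in the labelled mutant and 2 in the wild type.

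XDJ1 had 9.17, 8.70, 9.13, 9.33, 9.39, 9.63, 9.74, 9.53 and 9.79 in the labelled mutant, against 9.18, 9.68, 9.48, 9.51, 9.54, 9.49, 9.64, 9.57, 9.69 and 9.55 in the wild type. The strains differed most at 24 h, where the labelled mutant had its highest 3′ to 5′ score, 1.06. SBA1 had 12.04, 12.07, 12.01, 11.83, 11.76, 11.55, 11.39, 11.41 and 11.38 in the labelled mutant, against 12.29, 11.71, 11.69, 11.63, 11.53, 11.45, 11.45, 11.48, 11.44 and 11.37 in the wild type. SBA1 was lower late than early in each strain. AHA1 had 11.55, 12.37, 12.59, 12.44, 12.68, 12.37, 11.87, 12.56 and 12.30 in the labelled mutant, against 11.62, 12.26, 12.45, 12.54, 12.78, 12.88, 12.85, 12.91, 12.94 and 12.92 in the wild type, with its highest signal at 108 h.

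The 12 h arrays weigh on these lines, since most members stepped after 12 h. The slopes were therefore fitted again from 36 h on, as set out among the alternatives. In the labelled mutant 13 of 35 members fell and 1, XDJ1, rose, where 22.5% of all genes passed, 11.5% downward. In the wild type 8 rose and 5 fell, where 44.6% of all genes passed, 23.9% rising and 20.7% falling. The slopes differed for 12 members, 11 with the lower slope in the labelled mutant, where 29.7% of all genes passed, 16% with the lower and 13.7% with the higher slope there. Some strain differences were smaller at 108 h than at 36 h, such as that of SSA3, and others larger, such as that of HSP82 (-0.13 at 36 h, -1.05 at 108 h).

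RNA quality moved with time over the same span in the wild type. From 36 h on the 3′ to 5′ score lay between 0.76 and 0.95 in the labelled mutant, against 0.87 in the first and 1.44 in the last wild-type array. The 3′ signal of 18S lay between 6.97 and 7.68 in the labelled mutant, against 8.70 in the first and 14.64 in the last wild-type array. With the score in the fit from 36 h on, an alternative added after the data were seen, 2 members had the lower slope in the labelled mutant and none the higher, where 1.25% of all genes had the lower and 2.06% the higher. They were SSA3 (-0.49, adjusted p = 0.0491) and CPR7 (-0.40, adjusted p = 0.0313). Within the labelled mutant 8 members fell and 1 rose, where 10% of all genes fell and 6.75% rose. In the wild type limma called 0 members, with 2 at an unadjusted p under 0.05, where 0.0184% of all genes passed. The part of 18S signal in the slopes was not tested.

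The members with different slopes from 36 h on were all cytosolic. SSA3 fell in the labelled mutant by 0.45 per day, a slope of -0.45 (SE 0.06), and rose in the wild type by 0.18 (SE 0.05), a difference of -0.64 (SE 0.08, adjusted p = 8.4e-05). Both Hsp90 genes were among them, HSP82 with a difference of -0.26 (SE 0.06, adjusted p = 0.00409) and HSC82 with -0.21 (SE 0.04, adjusted p = 0.00303), as were 4 of their co-chaperones: CPR6 (-0.34), AHA1 (-0.24), HCH1 (-0.16) and SBA1 (-0.14). The others with a lower slope were SSA4 (-0.31), SSE1 (-0.20), ZUO1 (-0.17) and HSP104 (-0.16). XDJ1 had the higher slope in the labelled mutant (0.15). SSB1 and SSB2 rose in the wild type by 0.12 and 0.19 per day, and did not pass in the labelled mutant.

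Of the 8 mitochondrial members, HSP78 (-0.20) and MDJ1 (-0.28) fell in the labelled mutant from 36 h on, and HSP78 (-0.18), MGE1 (-0.19) and SSQ1 (-0.16) fell in the wild type. None of the 8 had slopes that differed between strains in limma, and 1 had an unadjusted p under 0.05. Without the 12 h arrays alone, 10 members fell and 3 rose in the labelled mutant, where 14.3% of all genes fell and 14.4% rose. In that fit 13 members had the lower and 1 the higher slope in the labelled mutant, where 17.2% of all genes had the lower and 14.6% the higher.

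**Figure D5:**
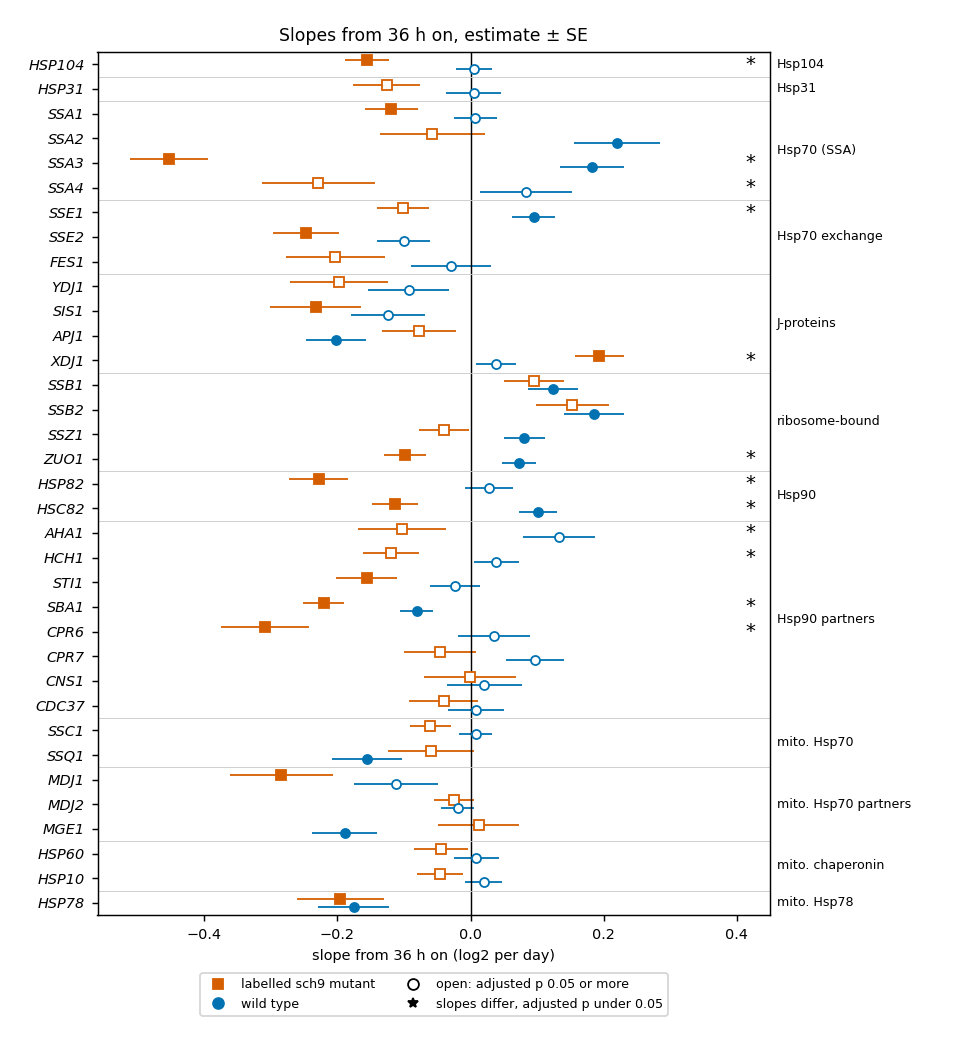
Slope of the log2 signal per day from 36 h on, with SE, for 35 chaperone genes, squares for the labelled sch9 mutant and circles for the wild type. Open symbols had an adjusted p of 0.05 or more, and stars mark the 12 members whose slopes differed, among them SSA3 (-0.45 against 0.18) and CPR6.

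Other chaperone genes and regulators were counted from lists of related genes, named by the smallest p. Of all genes 24.1% were higher and 28.7% lower after 12 h, and 32.4% were higher and 26.8% lower in the labelled mutant. The 4 genes on a list of further heat shock proteins were all higher after 12 h, with HSP30 at 5.45 and HSP42 at 2.52. In the labelled mutant 2 of the 4 were lower, HSP42 at -0.64 (adjusted p = 0.00503) and HSP30 at -0.15. The cytosolic chaperonin TRiC, which folds actin and tubulin, had 7 of 8 genes lower after 12 h, and TCP1 stood at -0.99 and CCT4 at -0.97. Between strains CCT8 (0.51) and CCT6 (0.30) were higher and CCT3 (-0.47) and CCT2 (-0.25) lower. Prefoldin, which hands nascent chains to TRiC, had 4 of 6 genes lower after 12 h, led by PAC10 (-1.62) and GIM3 (-1.40), and 2 of 6 lower in the labelled mutant, GIM4 (-1.28, adjusted p = 1.12e-05) and YKE2 (-0.47).

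Of 9 genes of the mitochondrial import motor and of iron-sulphur cluster assembly, 5 were higher and none lower in the labelled mutant, where 32.4% of all genes were higher and 26.8% lower. The pair named were ZIM17 (0.64, adjusted p = 3.78e-05), which keeps Ssc1 soluble, and ISU2 (1.24, adjusted p = 0.000726), a scaffold for clusters. JAC1, the J-protein partner of Ssq1 in that step, singled out here after its values were seen, was also higher, by 0.23 (adjusted p = 0.00921). ISU1 and ECM10 were the 2 higher after 12 h, at 1.77 and 1.31. ECM10 was also higher in the labelled mutant, by 0.80 (9 of 9 times, adjusted p = 0.00157), a value likewise picked after it was seen. Among 7 other J-protein genes, JJJ2 (0.59) was higher and JJJ1 (-0.47) lower in the labelled mutant, and JJJ3 (-1.07) was lower after 12 h. SNO4, of the HSP31 family, was 1.08 higher in the labelled mutant (adjusted p = 0.000912), opposite to HSP31, and 2.48 higher after 12 h. Of 4 further Hsp90 partners, PIH1 (0.59) was higher and TAH1 (-1.40) lower in the labelled mutant, and PPT1 (-1.48) was lower after 12 h.

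Of 5 regulators of heat shock and stress genes, 1 was higher and 3 were lower in the labelled mutant, and 3 were higher after 12 h, where 32.4%, 26.8% and 24.1% of all genes were. HSF1, the heat shock factor, stood at -0.14 between strains (adjusted p = 0.299) and was 0.74 higher after 12 h (adjusted p = 0.0245). MSN2 had a difference of 0.65 (SE 0.13, adjusted p = 0.00121) and MSN4 one of -0.94 (SE 0.21, adjusted p = 0.00249). After 12 h MSN4 was 2.25 higher and MSN2 stood at 0.14 and did not pass. Over the course MSN2 rose by 0.17 per day in the labelled mutant and fell in the wild type, at -0.14, a slope difference of 0.31 (SE 0.04, adjusted p = 0.000929). These are RNA levels and say nothing of where the proteins were in the cell.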

How the data were processed

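The authors deposited 1 column of log2 probe set summaries per array, between 5.76 and 15.02. The sources used here do not name the authors' summarization or normalization. Deposited column medians spanned 0.62, so the columns were quantile-normalized over the genes tested. The medians ran between 9.83 and 10.05 in the labelled mutant and between 9.44 and 10.02 in the wild type. The columns of the labelled mutant were also written with other decimals than those of the wild type. Strain, culture and any separate processing of the columns cannot be told apart.

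The array holds 5814 probe sets: 51 controls, 265 without a named gene and 5498 that were matched by gene identifier to the R64 annotation (12 symbols updated). For 47 genes with several probe sets the brightest was kept, leaving 5449 genes, 115 of them read by probe sets with a suffix for shared sequence. Among the 35 members this concerns SSB1.

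Tests used limma 3.58.1 in R 4.3.3 with Benjamini-Hochberg adjustment over 5449 genes: the strain term with time as a block (18 arrays, 8 residual degrees of freedom), slopes per strain (19 arrays, 15) and 24, 36 and 48 h against 12 h (8 arrays, 5). Ratios of 6 gene pairs, computed with Python 3.11.15 and scipy 1.17.1, were tested by exact sign permutation. The limma designs were tested on simulated data with noise drawn independently for each array. The sign permutation was checked only on made-up cases with a known answer.

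The members and lists were chosen with earlier results of these data known, so no test was made over a list. By a written rule, values per array are given for the 4 largest called strain differences in each direction, the largest called slopes and the gene pairs. From other lists up to 2 genes per direction with the smallest p are named, and HSF1, MSN2 and MSN4 whatever their values.

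Alternatives covered scaling (none, by medians, cyclic loess), a filter on the dimmest 25% of genes (4087 left), array weights, an intensity trend, no time block, a 3′ to 5′ score covariate, means over probe sets, other times or time scales, and each time left out. SSB1's own probe set, 24 to 108 h against 12 h and the score covariate from 36 h on were added after the data were seen.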

Additional observations from a re-analysis of the deposited data

Results flagged for a closer look

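For each member and strain, the highest and lowest arrays were set against the rest of the strain's course by Dixon's criterion. Of 70 such courses, 36 had an array that stood apart, and in all 36 it was the 12 h array, 15 times in the labelled mutant and 21 times in the wild type. Chance alone would mark about 1 in 20 groups of replicates, and times of a course are not replicates, so the criterion here only marks a step after 12 h. The 12 h signal was low in 23 of the courses and high in 13.

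In the labelled mutant the log2 signal at 12 h stood apart on the low side for HSP104 11.26, SSA3 9.17, SSA4 9.41, SSE2 9.52, APJ1 8.32, HSP82 11.19, STI1 11.54, SSQ1 9.17 and HSP78 9.02. It stood apart on the high side for SSA2 13.02, SSZ1 12.16, ZUO1 12.78, CPR7 10.001, CNS1 9.99 and MGE1 10.96. In the wild type it stood apart on the low side for HSP104 11.97, HSP31 11.81, SSA3 9.32, SSE2 10.84, FES1 10.76, APJ1 8.21, XDJ1 9.18, HSP82 12.54, AHA1 11.62, CPR6 12.13, SSC1 12.55, HSP60 12.87, HSP10 12.37 and HSP78 10.60. It stood apart on the high side for SSB1 13.45, SSB2 12.89, SSZ1 12.15, ZUO1 13.05, SBA1 12.29, CPR7 9.72 and CNS1 9.85.

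The time trends differed between the strains for CPR6, by -0.41 log2 per day (limma, adjusted p = 0.026). They also differed for MSN2, by 0.31 log2 per day (limma, adjusted p = 0.000929), which codes for a stress transcription factor and is not among the chaperone genes.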

How the results depend on the processing

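Of 697 recomputed strain differences of single members, 639 kept their side of the threshold with no called change of sign. Of the rest, 27 lost their call, 25 gained one and 6 turned sign with a call in either fit. Among the 639, 22 turned sign without a call in either fit. For the step after 12 h 346 of 382 kept theirs, 10 of them with an uncalled turn of sign, and none turned with a call. For the slopes 651 of 697 (wild type), 656 of 697 (labelled mutant) and 660 of 697 (their difference) kept theirs. Of these, 62, 77 and 57 turned sign without a call in either fit. With median centring 3 members were higher and 27 lower in the labelled mutant. With 12 h against 24 h alone 3 were higher and 3 lower. Members rising in the wild type numbered 8 with median centring, 1 with cyclic loess, 0 with the score covariate, 8 from 36 h on and 6 against log2 of hours, and between 0 and 5 with 1 time left out. Those falling there numbered 0, 5 and 3 with median centring or the score covariate, from 36 h on and against log2 of hours, and between 1 and 3 with 1 time left out. In the labelled mutant 3 rose against log2 of hours (1 to 3 with 1 time left out), and 1 fell with the deposited scaling and with median centring, 13 from 36 h on and 6 against log2 of hours (1 to 10). A lower slope in the labelled mutant than in the wild type was called for 0 in the deposited values and with the score covariate, 2 with median centring and cyclic loess and 11 from 36 h on (0 to 13 with 1 time left out), and a higher one for 1 from 36 h on (0 to 1). The share of all genes moved too. From 36 h on 23.9% rose and 20.7% fell in the wild type, against 4.81% and 6.46% over the whole course. In the labelled mutant 11.1% rose and 11.5% fell, against 5.38% and 4.64%. The slope there was lower for 16% and higher for 13.7%, against 1.74% and 1.12%. Counts without a share of all genes are not read as results about the members. With the score covariate limma called 0 of all genes for the wild-type slopes and for the slope difference. In the labelled mutant XDJ1, SBA1 and CPR6 kept their calls with it. Both ratios that lost their call did so at -0.28 (HSP78 over HSP104, deposited values and median centring) and 0.71 (SSA1 over SSA2, without the times from 84 h on). The median strain difference was -0.34 (cytosolic) and -0.64 (mitochondrial) in the deposited values, and -0.59 and -0.89 with median centring. The cause of these shifts was not tested.

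Turns of sign are listed here only where either fit was called. They occurred for the strain difference of SSB1 (-0.15 deposited, -0.41 median centring, -0.11 own probe set), HSC82 (-0.33 deposited, -0.58 median centring) and MDJ2 (-0.23 median centring). From 36 h on the wild-type slope turned for APJ1 (-0.20), HSP78 (-0.18), SSB1 (0.12), SSB2 (0.19), SSZ1 (0.081) and ZUO1 (0.072). In the labelled mutant it turned from 36 h on for HSP104 (-0.15), SSA3 (-0.45), SSE2 (-0.25), HSP82 (-0.23), STI1 (-0.16), MDJ1 (-0.28), SSA1 (-0.12) and HSP78 (-0.20). Without 12 h the slope turned there for HSP104, SSA3, SSE2, HSP82, STI1 and MDJ1, with ranges over the times left out, the lowest without 12 h, of -0.17 to 0.19, -0.46 to 0.32, -0.26 to 0.34, -0.21 to 0.088, -0.16 to 0.099 and -0.23 to 0.074. With the score added from 36 h on, an alternative chosen after seeing the data, 0 members were called in the wild type, 8 fell in the labelled mutant and 2 had the lower slope there. The slope then turned in the wild type for AHA1 (-0.13) and in the labelled mutant for HSP104 (-0.14), SSA3 (-0.51), SSE2 (-0.26), HSP82 (-0.22) and MDJ1 (-0.30). The slope difference turned for SSA4 (-0.31) from 36 h on, and without 12 h for SSA4 and STI1, with ranges of -0.34 to 0.20 and -0.16 to 0.081. The strain fit and the ratios were paired by time. Without the time block 4 members were higher and 13 lower in the labelled mutant. The labels give no replicate numbers to pair by. Signal over background of dim members, such as MDJ2, could not be judged from the deposited summaries.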
